A study of Homo sapiens with 4 samples.

Results

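The enzymes and transporters of sugar breakdown and the genes of the response to low oxygen were described in MDA MB 134VI cells, a cell line of lobular carcinoma of the breast that expresses the estrogen receptor. Members were the 10 genes SLC2A1, HK2, TPI1, GAPDH, PGK1, ENO1, LDHA, PDK1, VEGFA and BNIP3. They were taken by symbol from a list, and all 10 were found among the 33538 rows with plain gene symbols, called the all-gene rows below. PDK1, VEGFA and BNIP3 also had rows among the 1253 rows of a targeted cancer gene panel, called the panel rows. Wild-type cells were deprived of hormone in charcoal-stripped serum and then received 100 nM estradiol or vehicle (0.01% ethanol) for 24 h. There was 1 mRNA library per treatment, with 3367 estradiol cells and 4940 vehicle cells, so no treatment difference could be tested and every value below describes these 2 libraries of 1 cell line.

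Glycolysis splits glucose into pyruvate and yields ATP without oxygen. Glucose enters through transporters such as SLC2A1 and is trapped by hexokinases such as HK2, and TPI1, GAPDH, PGK1 and ENO1 carry out later steps. LDHA then turns pyruvate into lactate, while PDK1 restrains pyruvate dehydrogenase and so the entry of pyruvate into mitochondria. When oxygen is low, the transcription factor HIF-1 binds the core sequence ACGTG or GCGTG and raises most of these genes together with VEGFA, a growth factor for blood vessels, and BNIP3, a receptor for the removal of mitochondria. Estrogen receptor signalling and MYC are further known influences on glucose use in breast cancer cells.

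In RefSeq's GRCh38.p14 annotation ENO1 lies at chr1:8861000-8878686, LDHA at chr11:18394563-18408425, PGK1 at chrX:78104248-78129295, GAPDH at chr12:6534517-6538371 and TPI1 at chr12:6867420-6870948. SLC2A1 lies at chr1:42925353-42958868, HK2 at chr2:74834127-74893359, PDK1 at chr2:172555373-172724312, VEGFA at chr6:43770211-43786487 and BNIP3 at chr10:131967684-131981923.

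The promoters of 4 of the genes are shown because their products had different ratios in these data, from the highest of the set (ENO1) through LDHA and PGK1 to a ratio close to 1 (BNIP3). Each line gives the 250 bases before the annotated gene start, 5′ to 3′ on the gene's strand, from RefSeq on GRCh38.p14. Capitals mark the HIF core ACGTG or GCGTG on either strand, which overlaps the CACGTG element where both strands match. The windows are chr1:8878687-8878936 (minus strand) for ENO1, chr11:18394313-18394562 (plus) for LDHA, chrX:78103998-78104247 (plus) for PGK1 and chr10:131981924-131982173 (minus) for BNIP3.
ENO1: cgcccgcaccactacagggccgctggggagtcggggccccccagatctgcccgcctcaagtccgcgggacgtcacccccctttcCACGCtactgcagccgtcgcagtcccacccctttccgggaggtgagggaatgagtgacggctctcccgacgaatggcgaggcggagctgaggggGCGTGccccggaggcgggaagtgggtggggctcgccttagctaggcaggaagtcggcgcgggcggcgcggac
LDHA: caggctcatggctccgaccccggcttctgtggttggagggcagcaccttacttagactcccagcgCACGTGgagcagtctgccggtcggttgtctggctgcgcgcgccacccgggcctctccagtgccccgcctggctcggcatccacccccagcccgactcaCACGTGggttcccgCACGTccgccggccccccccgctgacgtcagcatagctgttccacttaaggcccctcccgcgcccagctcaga
PGK1: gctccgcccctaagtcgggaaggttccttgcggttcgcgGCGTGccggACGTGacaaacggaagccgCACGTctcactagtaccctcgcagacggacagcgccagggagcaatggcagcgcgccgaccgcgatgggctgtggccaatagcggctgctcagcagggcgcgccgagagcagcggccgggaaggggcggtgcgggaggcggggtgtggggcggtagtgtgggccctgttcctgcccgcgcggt
BNIP3: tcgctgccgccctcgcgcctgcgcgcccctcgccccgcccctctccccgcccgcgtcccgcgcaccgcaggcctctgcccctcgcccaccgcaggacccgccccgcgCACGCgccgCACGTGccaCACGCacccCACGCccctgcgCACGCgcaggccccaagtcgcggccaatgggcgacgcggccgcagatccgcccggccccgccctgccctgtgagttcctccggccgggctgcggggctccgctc
ENO1 had 2 separate stretches, LDHA 3, PGK1 3 and BNIP3 5, with overlapping matches counted as 1 stretch. The table held 13 windows for 9 of the 10 genes, VEGFA being the gene without one, and 10 of the 13 windows (76.9%) held the core. Among the 35116 windows of all genes, 43.2% held it. The SLC2A1 window held 0 matches. A match is a description of these letters, and binding was not measured.

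Depth differed between the libraries. The all-gene rows held 5937422 UMIs (unique molecular identifiers, counted as single transcripts) with estradiol and 6918198 with vehicle, a median of 1561 and 1199 per cell. The panel rows held 10352943 and 14080930 UMIs, a median of 2676 and 2426.5 per cell. Levels are given as CPM, the usual depth-scaled count, relative to all UMIs of the same block of rows and library, with 95% intervals that cover counting error only and leave out variation between cells and cultures. Ratios are estradiol over vehicle, and levels are not compared between genes, whose capture differs. The 8 luminal markers summed to 8181 CPM with estradiol and 6773 CPM with vehicle, while CDH1, the gene of E-cadherin, was at 10.3 and 10.1 CPM. Log2 ratios of the 8 luminal markers went both ways, from -0.30 for FOXA1 to 0.84 for KRT8. Of the markers of other cells, 5 of 6 basal, 5 of 6 fibroblast, 2 of 5 endothelial and 4 of 6 immune genes were at 0 in both libraries, among them KRT5, DCN, PECAM1 and PTPRC. Their sums were 1.01 and 1.16 CPM (basal), 21.1 and 26.0 CPM (fibroblast, all of it COL1A1), 0.337 and 0.434 CPM (endothelial) and 0.337 and 0 CPM (immune). As a check of the treatment, the estrogen targets PDZK1 (25.3 against 3.04 CPM), GREB1 (84.9 against 33.5), IGFBP4 (234 against 97.1) and WNT4 (19.2 against 7.23) were higher in the estradiol library. These 4 had the largest ratios of a list of 8 targets. Of the 7 with at least 50 UMIs, 6 were at least 1.5-fold higher, against 3.82% of all genes, and the lowest log2 ratio was 0.09. The libraries shared 4 cell barcodes among 8307 cells.

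The enzymes of the later steps of glycolysis were higher in the estradiol library. All 5 (TPI1, GAPDH, PGK1, ENO1 and LDHA) had ratios above 1, between 1.10 and 1.56, and together they took 0.359% of all-gene UMIs with estradiol (0.354 to 0.364) and 0.260% with vehicle (0.256 to 0.264). The ratio of these shares was 1.38 (1.35 to 1.41). Without GAPDH, which gives most of these UMIs, the other 4 took 0.122% and 0.0903%, a ratio of 1.35 (1.30 to 1.39). For the 5 enzymes the median log2 ratio was 0.48, against -0.03 for the 10977 genes with at least 50 UMIs over both libraries. Among all 10 genes, 6 had a ratio above 1, where 45.6% of the 10977 genes did. Only ENO1 was at least 1.5-fold higher, 1 of 10 genes against 3.82% of all genes, and 0 of 10 were at least 1.5-fold lower, against 6.67%.

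**Figure D1:**
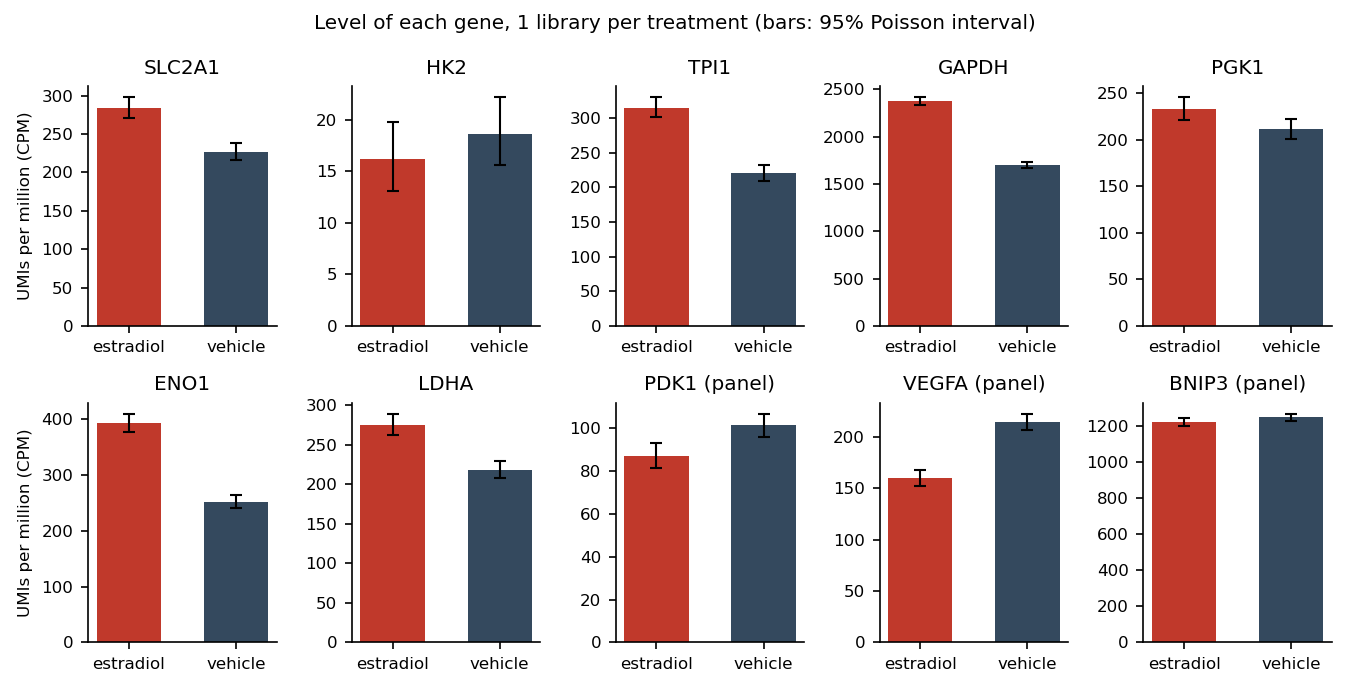
Level of each of the 10 genes in depth-scaled UMIs (CPM; axes start at 0 and differ between genes) in the estradiol library and the vehicle library, with 95% Poisson intervals; PDK1, VEGFA and BNIP3 are from the panel rows, the others from the all-gene rows. SLC2A1 and the 5 later enzymes were higher with estradiol, and VEGFA was lower, at 159 against 214 CPM.

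ENO1, an enolase of the later steps, had the highest ratio of the set. It was at 393 CPM with estradiol (377 to 409) and 252 CPM with vehicle (240 to 264), from 2333 and 1743 UMIs, which gave a ratio of 1.56 (1.47 to 1.66). Its log2 ratio of 0.64 lay at the 97.0 percentile of all genes with at least 50 UMIs. TPI1, which interconverts the triose phosphates, was at 315 CPM (301 to 330) and 221 CPM (210 to 232), 1.43-fold higher (1.33 to 1.53) and at the 94.5 percentile. The intervals of the libraries did not overlap for either gene.

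GAPDH, the dehydrogenase that follows TPI1 and a common reference gene in PCR, was at 2374 CPM with estradiol (2335 to 2413) and 1697 CPM with vehicle (1667 to 1728). With 14094 and 11743 UMIs it was the best counted gene of the all-gene rows in this set, and its ratio was 1.40 (1.36 to 1.43), at the 93.5 percentile. Other reference genes did not all share this ratio. Of 14 such genes 8 had a ratio above 1, and their median log2 ratio was 0.04. Among them HPRT1 had a log2 ratio of 0.49, TFRC of 0.36 (0.48 in the panel rows) and PGAM1 of 0.20. At least 1.5-fold lower were 0 of the 14.

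LDHA, the lactate-forming subunit, was at 275 CPM with estradiol (262 to 289) and 219 CPM with vehicle (208 to 230), and its ratio was 1.26 (1.17 to 1.35). PGK1, the first ATP-yielding enzyme of the pathway, had the smallest difference of the 5 enzymes, at 233 CPM (221 to 245) and 211 CPM (201 to 222). Its ratio was 1.10 (1.02 to 1.19), and the intervals of the libraries overlapped. With each cell reduced to 800 UMIs at random, the PGK1 log2 ratio was 0.0303 in place of 0.14. ENO1, LDHA, PGK1, GAPDH and TPI1 each have processed pseudogenes of near-identical sequence, so their counts depend on how reads that match several places were assigned, which the labels do not state.

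At the entry of the pathway, SLC2A1, the glucose transporter GLUT1, was at 284 CPM with estradiol (270 to 298) and 227 CPM with vehicle (216 to 238). The ratio was 1.25 (1.17 to 1.34), at the 86.5 percentile and close to that of LDHA. HK2, the inducible hexokinase, was scarce, with 96 UMIs in the estradiol library and 129 in the vehicle library, or 16.2 CPM (13.1 to 19.7) and 18.6 CPM (15.6 to 22.2). A difference in HK2 was not detectable at this depth: its log2 ratio of -0.21 had an interval of -0.60 to 0.19 and turned to 0.22 in cells reduced to 800 UMIs.

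PDK1, VEGFA and BNIP3 were not among the higher genes. In the panel rows VEGFA was at 159 CPM with estradiol (152 to 167) and 214 CPM with vehicle (207 to 222), from 1651 and 3018 UMIs, 1.34-fold lower (1.27 to 1.43). PDK1 was at 87.1 CPM (81.5 to 93.0) and 101 CPM (95.9 to 107), 1.16-fold lower (1.07 to 1.26). BNIP3 was at 1217 CPM (1196 to 1239) and 1246 CPM (1227 to 1264), with a log2 ratio of -0.03 (-0.07 to 0.0002) that became 0.078 under scaling by the median of ratios. The median log2 ratio of all 940 panel genes with at least 50 UMIs was -0.11, and that scaling shifts every panel ratio by 0.11. Relative to this shift VEGFA stood at -0.32 and PDK1 at -0.10. None of the 3 genes had a ratio above 1, against 36.7% of panel genes. At least 1.5-fold, 0 of 3 were higher, against 3.3% of panel genes, and 0 of 3 lower, against 11.8%.

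The same 3 genes were much shallower in the all-gene rows, which come from the same cells and are no second measurement of the treatment. VEGFA had 99 UMIs with estradiol and 168 with vehicle there, a log2 ratio of -0.54 (-0.92 to -0.18). PDK1 had 40 and 64 UMIs and a log2 ratio of -0.46 (-1.07 to 0.13), and BNIP3 had 611 and 746 UMIs and -0.07 (-0.22 to 0.09). Each of these intervals held the value from the panel rows.

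**Figure D2:**
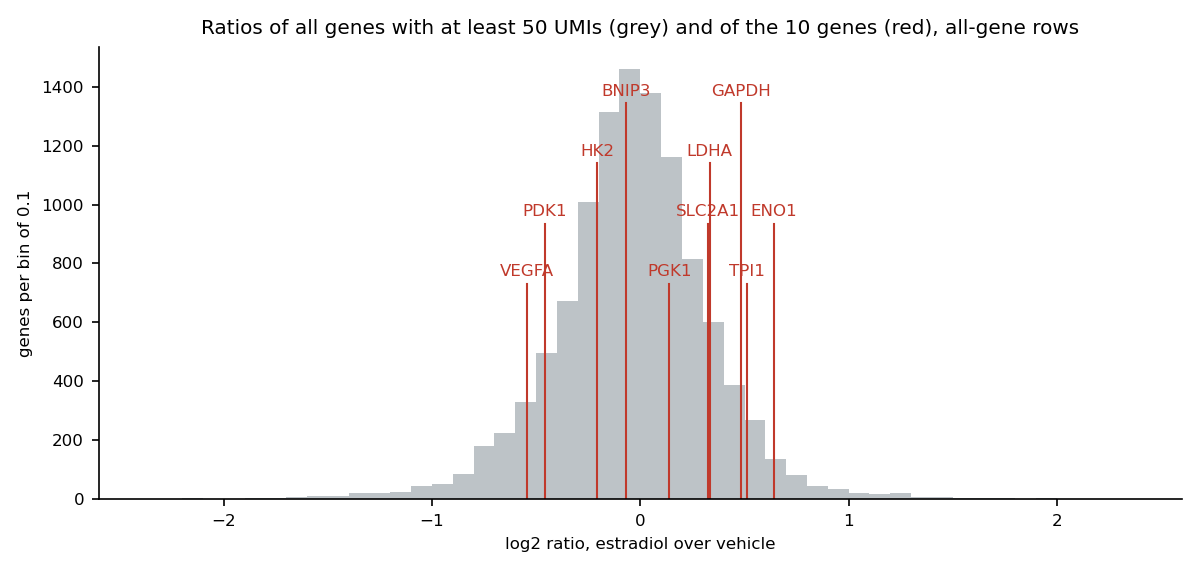
Number of genes per bin of 0.1 on the log2 ratio scale (estradiol over vehicle, all-gene rows, genes with at least 50 UMIs; grey bars), with the ratios of the 10 genes as red lines whose heights carry no meaning. ENO1, TPI1 and GAPDH lie in the right flank at 0.64, 0.51 and 0.48, and VEGFA and PDK1 in the left flank at -0.54 and -0.46.

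At equal depth GAPDH was also found in more of the estradiol cells. In cells reduced to 800 all-gene UMIs (3228 estradiol and 3989 vehicle cells, leaving out 139 and 951 shallower cells), GAPDH was found in 81.4% of estradiol cells (80.1 to 82.8) and 71.3% of vehicle cells (69.9 to 72.7). Its mean was 1.85 and 1.35 UMIs per cell and its median 2 and 1. Without this reduction 94.0% of estradiol cells and 80.7% of vehicle cells held a GAPDH UMI. ENO1 was found in 26.3% and 18.4% of the reduced cells, TPI1 in 21.3% and 16.1%, LDHA in 20.3% and 15.7%, and SLC2A1 in 19.98% and 16.1%. For PGK1 the shares were 16.4% (15.2 to 17.8) and 15.8% (14.7 to 17.0), with overlapping intervals. The full-depth shares of these 5 genes ran from 32.2% to 45.7% with estradiol and from 24.0% to 27.8% with vehicle. The libraries hold 1 cell line, so no cell type without these genes was present to measure the share that free RNA would give.

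**Figure D3:**
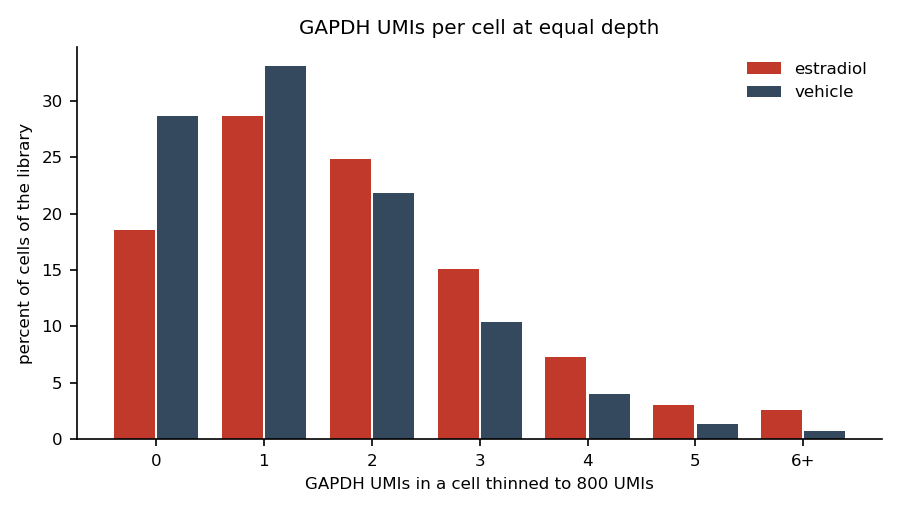
Percent of cells in each library (y axis, from 0) by the number of GAPDH UMIs in a cell after reduction to 800 UMIs (x axis; 6+ means 6 or more), in the estradiol library and the vehicle library. Cells with 0 GAPDH UMIs made up 18.6% with estradiol and 28.7% with vehicle, and cells with at least 6 made up 2.54% and 0.702%.

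In the panel rows, reduced to 1500 UMIs per cell, VEGFA was found in 19.3% of estradiol cells (17.9 to 20.7) and 23.8% of vehicle cells (22.5 to 25.1). PDK1 was found in 11.8% (10.7 to 13.0) and 12.9% (11.9 to 13.98), and BNIP3 in 81.2% (79.8 to 82.5) and 83.1% (81.9 to 84.3). At full depth the shares were 32.0% and 36.3% for VEGFA, 20.6% and 21.6% for PDK1, and 93.7% and 92.0% for BNIP3. For BNIP3 the order of the libraries differed between full and equal depth. Spread over cells, as variance over mean of the reduced counts, was 1.23 and 1.32 for VEGFA, 1.25 and 1.17 for GAPDH and 1.04 and 1.01 for ENO1, where Poisson counts give 1.

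The libraries differed in the authors' cell-cycle phases, so levels were compared within each phase. S cells made up 29.0% of estradiol and 15.6% of vehicle cells, and G1 cells 34.5% and 50.5%. Summed S-phase markers were at 666 and 441 CPM and G2/M markers at 4336 and 5001 CPM. ENO1 was higher with estradiol in every phase, at 372 against 222 CPM in G1 cells, 441 against 320 in S cells and 376 against 258 in G2M cells. Its log2 ratios were 0.74 (0.59 to 0.90), 0.46 (0.27 to 0.65) and 0.55 (0.40 to 0.69) in that order. GAPDH too was higher in every phase, at 2326 against 1621 CPM in G1 cells, 2522 against 1933 in S cells and 2308 against 1690 in G2M cells. TPI1 had log2 ratios of 0.55 in G1 cells, 0.37 in S cells and 0.44 in G2M cells, each with an interval above 0. The median log2 ratio of all genes with at least 50 UMIs was -0.01, 0.01 and -0.04 in these phases.

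LDHA and PGK1 varied more between phases. LDHA was at 301 CPM with estradiol and 199.8 CPM with vehicle in G1 cells, a log2 ratio of 0.59 (0.42 to 0.76), and at 262 and 242 CPM in G2M cells, a log2 ratio of 0.11 (-0.04 to 0.27). The intervals of the G1 and G2M ratios did not overlap, but with 1 library per treatment the difference between phases was not tested. PGK1 was higher with estradiol in G1 cells, 242 against 202 CPM (log2 ratio 0.26, 0.08 to 0.44). In S cells it was at 232 with estradiol and 267 CPM with vehicle, and the log2 ratio was -0.21 (-0.43 to 0.02). SLC2A1 had log2 ratios of 0.41 in G1 cells and 0.44 in G2M cells, and in S cells 0.14 with an interval of -0.08 to 0.37.

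For VEGFA and PDK1 in the panel rows the G1 cells held the largest differences of the 3 phases. VEGFA was at 174 CPM with estradiol and 253 CPM with vehicle in G1 cells, a log2 ratio of -0.54 (-0.68 to -0.40). In S cells it was at 137 and 158 CPM (-0.21, -0.42 to 0.01) and in G2M cells at 164 and 195 CPM (-0.25, -0.39 to -0.12). PDK1 had log2 ratios of -0.35 in G1 cells, -0.26 in S cells and -0.09 in G2M cells, the last with an interval of -0.33 to 0.14. BNIP3 ratios stayed between -0.06 and 0.04 in the 3 phases. The median of all panel genes was -0.10 in G1 cells, -0.09 in S cells and -0.11 in G2M cells. G1 cells of the libraries were not alike in cluster. Of the estradiol G1 cells 6.02% lay in cluster 2 and 27.7% in cluster 1, against 43.2% and 5.86% of the vehicle G1 cells. What share of the G1 ratios goes with this was not tested, and values within clusters are given below.

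**Figure D4:**
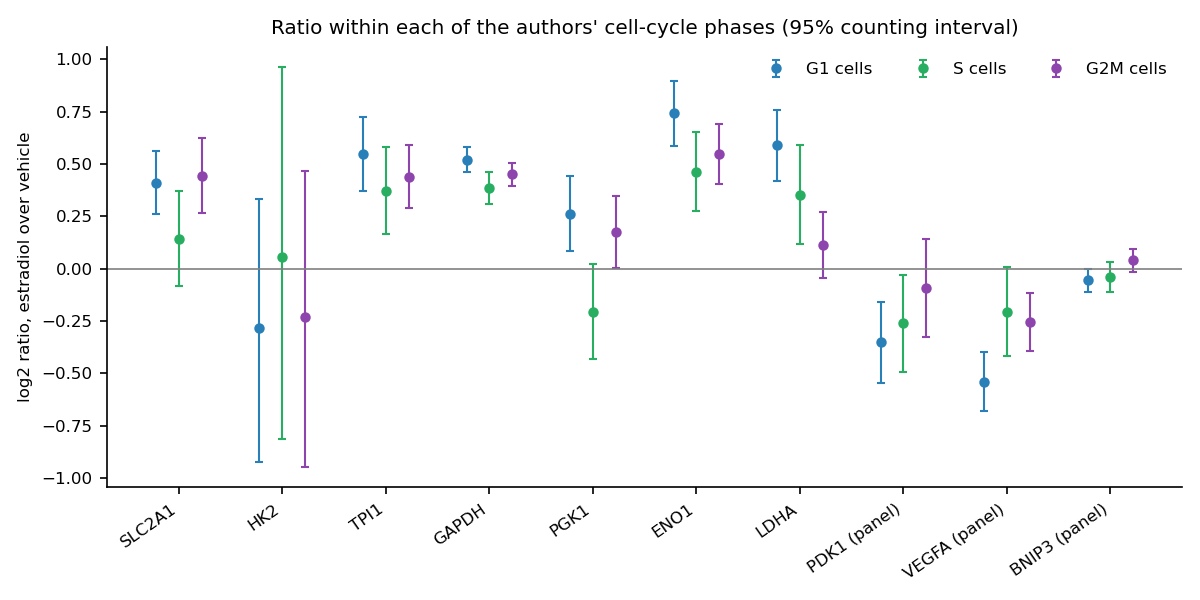
Log2 ratio of estradiol over vehicle (y axis) for each gene within G1, S and G2M cells as called by the authors, with 95% counting intervals; 0 marks equal levels. ENO1, GAPDH and TPI1 lie above 0 in every phase, LDHA is at 0.59 in G1 and 0.11 in G2M cells, and HK2 rests on 96 and 129 UMIs.

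Within a library the genes also had phase patterns of their own. SLC2A1 was lower in G2M than in G1 cells, with a log2 ratio of G2M over G1 of -0.63 (-0.79 to -0.46) in the estradiol library and -0.66 (-0.83 to -0.50) in the vehicle library. PDK1 showed the same direction in the panel rows, at -0.70 (-0.94 to -0.45) and -0.96 (-1.14 to -0.78), and was at 114 and 137 CPM in S cells against 60.3 and 64.2 CPM in G2M cells. BNIP3 had smaller differences, at -0.23 (-0.29 to -0.18) and -0.33 (-0.38 to -0.28) for G2M over G1. VEGFA was lowest in S cells, with log2 ratios of S over G1 of -0.34 (-0.53 to -0.16) with estradiol and -0.68 (-0.85 to -0.51) with vehicle.

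TPI1, ENO1 and GAPDH instead had higher levels in S cells. TPI1 was higher in S than in G1 cells, by 0.38 on the log2 scale (0.21 to 0.56) in the estradiol library and 0.56 (0.35 to 0.77) in the vehicle library, and ENO1 by 0.25 (0.09 to 0.40) and 0.52 (0.33 to 0.72). GAPDH differed less, by 0.12 and 0.25. PGK1 was higher in S than in G1 cells with vehicle (0.40, 0.20 to 0.61), while with estradiol the log2 ratio was -0.07 (-0.27 to 0.13). LDHA in G2M over G1 cells was at -0.20 (-0.36 to -0.03) with estradiol and 0.28 (0.12 to 0.44) with vehicle.

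Across the authors' 8 clusters, GAPDH was higher with estradiol in all 8, with log2 ratios from 0.30 in cluster 1 to 0.47 in cluster 5. ENO1 was likewise above a ratio of 1 in 8 of 8 clusters, with an interval above 1 in 7; the exception was cluster 2, which held 82 estradiol cells and 12 ENO1 UMIs. LDHA was above a ratio of 1 in 8 of 8 clusters, 3 of them with an interval above 1. In clusters 2, 5 and 6, mostly G1 cells, the LDHA log2 ratios were 0.39 (-0.48 to 1.16), 0.30 (-0.08 to 0.69) and 0.32 (-0.28 to 0.88). TPI1 was above a ratio of 1 in 7 of 8, the exception being cluster 6 with 19 estradiol UMIs. PGK1 was above it in 6 of 8, with 0 intervals above 1. The clusters were made from these cells, so their levels are descriptions.

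Cluster 2, whose cells were 85.4% G1 with estradiol and 93.7% G1 with vehicle, had low levels of ENO1 and GAPDH. ENO1 was at 192 and 174 CPM there, the lowest of the 8 clusters in either library, and GAPDH at 1877 and 1364 CPM, again the lowest. PGK1 was not lowest there in either library, at 257 CPM from 16 UMIs with estradiol and 202 CPM with vehicle. These cells were also the shallowest, with a median of 728.5 and 748 all-gene UMIs. Cluster 3, mixed in phase and the deepest at 2769.5 and 2785 UMIs, had TPI1 at 346 and 282 CPM, its highest level in either library. Whether depth plays a part in these levels was not tested.

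SLC2A1 varied most between clusters among the well counted all-gene members. With vehicle it ran from 153 CPM in cluster 4, all G2M cells, to 453 CPM in cluster 5, a 2.96-fold range. Cluster 5 was 95.6% and 97.0% G1 cells, and SLC2A1 there was at 374 CPM with estradiol (log2 ratio -0.28, -0.57 to 0.02). Cluster 6 was also nearly all G1 cells, at 93.7% of estradiol cells, yet SLC2A1 was at 173 and 170 CPM. In cluster 2 it was at 465 CPM from 29 UMIs with estradiol and 240 CPM with vehicle.

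Panel genes had their own order. PDK1 was highest in cluster 1, which is rich in S cells, at 125 CPM with estradiol and 166 CPM with vehicle, and lowest in cluster 4 at 45.9 and 52.9 CPM. VEGFA was lower with estradiol in 7 of 8 clusters, and in cluster 7 it was at 304 against 225 CPM. In clusters 2, 5 and 6, mostly G1 cells, its log2 ratios were -0.20 (-0.86 to 0.39), -0.43 (-0.73 to -0.13) and -0.24 (-0.70 to 0.19). In cluster 0, mostly G2M cells, the VEGFA ratio was -0.51 (-0.74 to -0.30). PDK1 in clusters 2, 5 and 6 was at -0.59 (-1.67 to 0.31), -0.25 (-0.67 to 0.17) and -0.23 (-0.91 to 0.40). BNIP3 ran from 1095 to 1423 CPM with estradiol and from 1062 to 1464 CPM with vehicle, and 0 of 8 clusters had a ratio interval that left out 1.

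**Figure D5:**
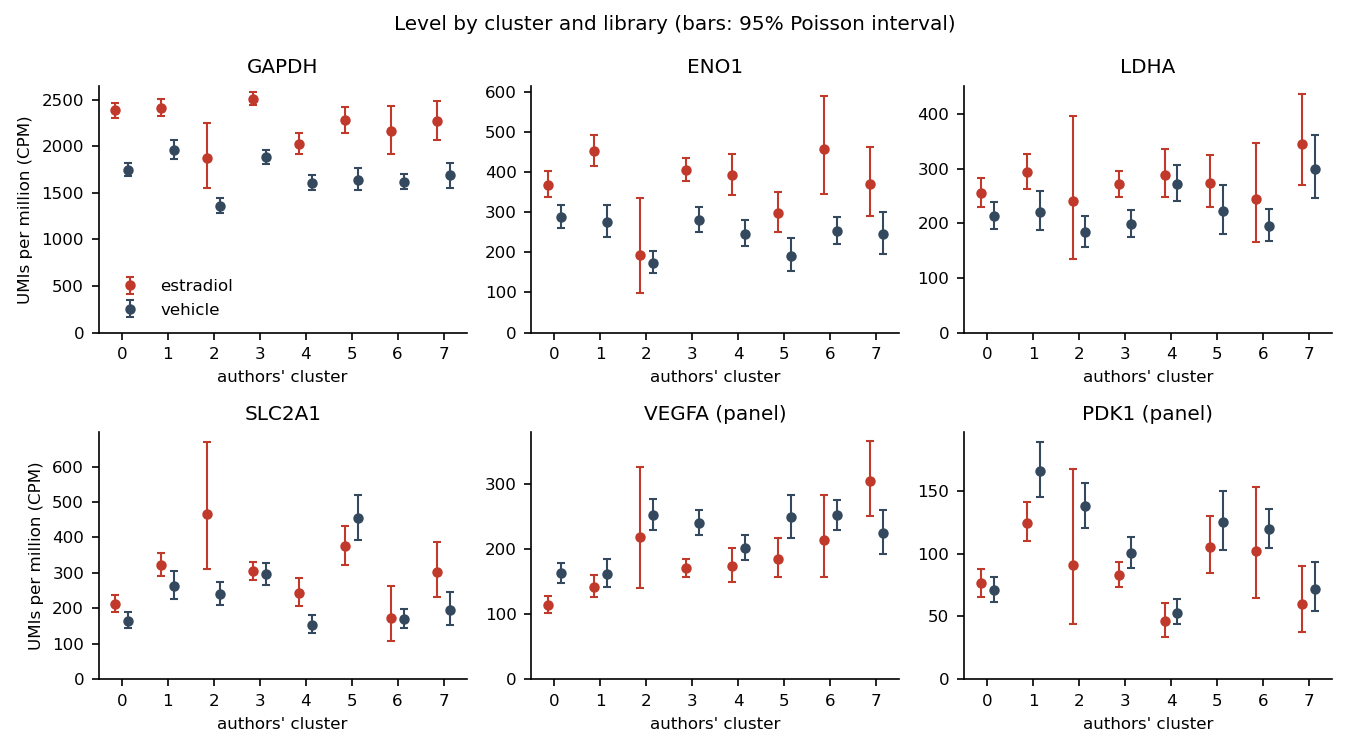
Level in depth-scaled UMIs (CPM, y axis from 0) by the authors' cluster for GAPDH, ENO1, LDHA and SLC2A1 (all-gene rows) and VEGFA and PDK1 (panel rows), in the estradiol library and the vehicle library, with 95% Poisson intervals. GAPDH is higher with estradiol in all 8 clusters, SLC2A1 is highest with vehicle in cluster 5 at 453 CPM, and VEGFA in cluster 7 goes against the other clusters.

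Over the 16 groups of 1 cluster and 1 library, levels of ENO1 and GAPDH had a Pearson correlation of 0.84, GAPDH and TPI1 of 0.73, ENO1 and TPI1 of 0.61, and SLC2A1 and PGK1 of 0.63. These pooled values take in the difference between the libraries, so the values within each library, over 8 clusters, differ from them. ENO1 with GAPDH was at 0.64 with estradiol and 0.81 with vehicle, and GAPDH with TPI1 at 0.61 and 0.90. ENO1 with TPI1 was at 0.25 and 0.93, and SLC2A1 with PGK1 at 0.75 and 0.40. SLC2A1 and ENO1 ran in opposite directions within the libraries, at -0.74 with estradiol and -0.43 with vehicle, against -0.19 pooled. These groups share library and depth, and no test is attached. Among 1032 genes with at least 2000 UMIs, the patterns most like ENO1 were those of TPM3 (0.89), CCT6A (0.88) and NHP2 (0.88), and those most like GAPDH were SSR3 (0.89), YBX1 (0.89) and CA12 (0.89). LDHA was closest to HSP90B1 (0.94), PTP4A2 (0.90) and CCT5 (0.89), and TPI1 to KPNB1 (0.85), GPX4 (0.85) and PPP1CA (0.85). PGK1 was closest to SOD1 (0.82), HSPE1 (0.79) and NOP56 (0.78), and SLC2A1 to CST3 (0.89), C6orf141 (0.87) and MT-CYB (0.87). Some of these were much lower within 1 of the libraries. CA12 with GAPDH was at 0.25 with estradiol and 0.80 with vehicle, SOD1 with PGK1 at 0.95 and 0.45, and NHP2 with ENO1 at 0.89 and 0.57.

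The rest of the glycolytic genes were mostly above a ratio of 1, while 6 of the 10 members were above it and 4 below. Of 25 such other genes 15 had at least 50 UMIs. Among these 15, 14 had a ratio above 1 and 1 below it, where 45.6% of all genes were above 1. The interval lay above 1 for 8 of the 15 and below 1 for 0. The median log2 ratio of the 15 was 0.27 against -0.03 for all genes. SLC16A1, a lactate and pyruvate transporter, was the 1 gene at least 1.5-fold higher, where 3.82% of all genes were. It was at 17.5 against 8.53 CPM from 104 and 59 UMIs (2.05-fold, log2 ratio 1.04, 0.56 to 1.52). With a minimum of 200 UMIs, 0 genes of this list were at least 1.5-fold higher. The pyruvate kinase gene PKM was at 253 against 171 CPM (log2 ratio 0.57), the aldolase gene ALDOA at 0.44 and GPI, the isomerase after hexokinase, at 0.38.

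Of 20 other known HIF targets measured, 8 had a ratio above 1 and 12 below, a share above 1 near the 45.6% of all genes, and their median log2 ratio was -0.09. At least 1.5-fold, 3 were higher and 3 lower, against 3.82% and 6.67% of all genes. With a minimum of 200 UMIs, 2 of these targets were at least 1.5-fold higher and 0 lower. The oxygen sensor EGLN3 was at 4.38 against 13.7 CPM (log2 ratio -1.65), from 26 and 95 UMIs. The mTOR inhibitor gene DDIT4 was at -1.57 from 17 and 59 UMIs in the all-gene rows. In the panel rows DDIT4 was at -1.10 from 448 and 1305 UMIs. ANKRD37 was at -1.26 from 19 and 53 UMIs. Of the 3 higher targets, STC2, a secreted glycoprotein, was at 138 against 80.7 CPM (0.78) and CA12 had a log2 ratio of 0.60. Among 10 measured regulators of the HIF pathway 2 were above a ratio of 1 and 8 below, against 45.6% of all genes above 1, with a median of -0.14 and 0 past 1.5-fold. The 4 of them with measured panel rows had 1 ratio above 1 and 3 below, and a median of -0.07 that became 0.04 under scaling by the median of ratios. In the all-gene rows the ratios farthest from 1 were, on the log2 scale, CITED2 at -0.46 and the HIF partner ARNT at -0.40. Next came the prolyl hydroxylase gene EGLN1 at -0.37 (-0.76 to 0.02) and the coactivator gene CREBBP at -0.26 (-0.23 in the panel rows).

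Beyond glycolysis, a list for pyruvate entry to mitochondria had a median log2 ratio of 0.06 over 11 genes. It holds carriers, parts of pyruvate dehydrogenase, and genes that restrain or reactivate that enzyme. The list of the TCA cycle had a median of -0.03 over 16 genes. In either list 0 genes were past 1.5-fold, where 3.82% of all genes were higher and 6.67% lower. PDP2, which reactivates pyruvate dehydrogenase, was at 0.42 (0.01 to 0.83) and PDHA1 at 0.19 (-0.003 to 0.38). MPC2 was at 0.13 (-0.04 to 0.29) and MPC1 at 0.12 (-0.05 to 0.30). SUCLG2 was at -0.46, and SDHD was at -0.40 with an interval of -0.90 to 0.10 (-0.30 in the panel rows). SDHB was at -0.30 (-0.05 in its better counted panel row) and the citrate synthase gene CS at 0.28. The pentose phosphate list had a median of 0.06 over 7 genes, 1 of them at least 1.5-fold higher and 0 lower. The transketolase gene TKT was at 186 against 126 CPM (log2 ratio 0.56). RPIA and PGLS were at -0.20 each, with intervals of -0.74 to 0.33 and -0.39 to -0.004. TXNIP, which limits glucose uptake, was at 60.6 against 227 CPM (log2 ratio -1.90, and -2.08 in the panel rows). The mitochondrial coactivator gene PPARGC1A had 6 and 29 UMIs (-2.05, and -1.81 in the panel rows). The growth regulator MYC was at 0.50 (0.68 in the panel rows). SESN2 was at -0.28 (-0.72 to 0.15) and MLXIPL at -0.11 (-0.84 to 0.61). The list of glucose restraint and growth drivers that holds the last 5 genes had 6 measured genes, with a median of -0.07.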

How the data were processed

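Single-cell mRNA values of 1 estradiol and 1 vehicle library were used; the repair rows were not used here. The authors deposited natural log values, 1 column per cell, and per the file headers an annotation with UMI counts per cell, the percent of mitochondrial UMIs, cluster and phase. The build hg38 and the tools UMI-tools 0.5.3, Bowtie2 2.3.2, cutadapt 1.8.3, SAMtools and Cell Ranger 3.0.2 are named, with no role, per the submitters' processing notes. The labels do not state how the all-gene rows were sequenced. The authors' percent was a median of 7.62 with estradiol and 7.66 with vehicle.

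Undoing the log and the scaling to 10000 per cell gave back UMI counts; 100% came out whole within 1e-06 and matched the deposited totals in 100% of cells. The design had assumed counts, which these are. Counts were summed per library, phase or cluster. Levels have exact Poisson, shares exact binomial and ratios Clopper-Pearson 95% intervals (Python 3.11.15, numpy 2.4.6, scipy 1.17.1, pandas 2.3.3). Ratios and intervals were tried on simulated Poisson counts, which hold no variation between cells or cultures and so cannot test for it. No cell was left out and doublets were not called. Alternatives were the removal of the 5% deepest cells, other scalings, other UMI minima and equal depth. No p-value is given. The 10 genes and all lists were chosen with earlier results of these data known. From each list the 4 genes with the largest absolute log2 ratio at 50 UMIs or more were named, and TXNIP, PPARGC1A and MYC always. Some genes that this rule names are not reported here. For each member with at least 2000 UMIs the 3 genes of closest pattern, on log2(CPM + 10), were named.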

Additional observations from a re-analysis of the deposited data

Results flagged for a closer look

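VEGFA in the panel rows had ratios of opposite direction in different clusters, each with a counting interval that left out 1. The log2 ratio of estradiol over vehicle was 0.44 in cluster 7, against -0.51 in cluster 0, -0.49 in cluster 3 and -0.43 in cluster 5. Cluster 7 gave 112 VEGFA UMIs from 173 estradiol cells and 175 UMIs from 351 vehicle cells in the panel rows. In the all-gene rows the same cells gave 7 and 14 VEGFA UMIs. The log2 ratio there was -0.16, with a wide interval of -1.71 to 1.24. The difference between clusters was not tested, since each treatment has 1 library.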

How the results depend on the processing

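No paired analysis was possible because each treatment has 1 library, and leaving out a replicate was not possible for the same reason. In the all-gene rows ENO1, LDHA, PGK1, GAPDH, TPI1 and SLC2A1 kept a ratio above 1 under all 7 alternatives run for each; ENO1 ranged from 0.56 to 0.68 and LDHA from 0.30 to 0.40 in log2 ratio. With each cell reduced to 800 UMIs, PGK1 was at 0.0303 and HK2 at 0.22. With the vehicle library's cluster weights in both libraries, chosen after seeing the data, GAPDH was at 0.41, TPI1 at 0.33 and panel VEGFA at -0.28. A median-of-ratios size factor put panel VEGFA at -0.32, panel BNIP3 at 0.078 and the median of the 3 panel members at -0.10. Without the 10 genes with most UMIs, panel BNIP3 was at 0.0303. Genes at least 1.5-fold higher in the all-gene rows numbered 419, and 197 with at least 200 UMIs or 1527 with at least 1 UMI in each library; lower genes numbered 732, and 275 or 2322. In the panel rows 31 genes were higher, and 59 with at least 1 UMI in each library or 58 with the size factor. Of the other alternatives for the members, medians and counts over all genes, 99 stayed within the interval or 1.5 times the count. Depth limits HK2, and PDK1 and VEGFA in the all-gene rows, most.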
